A study of Mus musculus with 8 samples.

Results

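The genes described here encode the proteins of the cytoplasmic ribosome. They were taken as all protein-coding genes of GENCODE mouse release M21 (mm10) whose symbol is Rpl or Rps followed by a number, without the Rps6k kinases. The rule found 88 genes among 21951 coding genes: 43 canonical large subunit proteins, 30 canonical small subunit proteins, 8 paralogs, 6 coding genes named as pseudogene-like copies (Rpl10-ps3, Rpl9-ps1, Rpl36a-ps1, Rpl36-ps4, Rpl9-ps6 and Rps12-ps3) and Rps19bp1, which the rule takes in by its symbol although its product binds a ribosomal protein and is not a part of the ribosome. Open chromatin was mapped by ATAC-seq, which uses a transposase that inserts adapters into accessible DNA, in SN4741 cells. This mouse line was derived from the embryonic midbrain with a temperature-sensitive T antigen that the tyrosine hydroxylase promoter drives. The study found the line to be polyploid with an unstable karyotype, so copy number can differ between cells and between genes. There were 4 libraries at 37 °C in 10% serum and 4 libraries after 48 h at 39 °C in 0.5% serum, each from 50000 cells labelled wild type and neural precursor and amplified for 12 cycles. Temperature and serum changed together and cannot be told apart here. The labels do not say whether replicates were separate cultures, so p-values measure the spread between these libraries, which may be technical.

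A ribosome holds a small and a large subunit, and each of the canonical proteins is needed in equal amount with its partners. Ribosomal protein genes are among the most actively transcribed genes of growing cells, they are short, and their transcripts begin at a run of pyrimidines, the 5′ terminal oligopyrimidine tract, through which their translation responds to nutrients and growth factors. Their promoters usually lack a classical TATA box and are bound by ETS family, YY1 and SP/KLF factors.

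The promoter sequences come first, since the heights below belong to them. RefSeq promoters (GRCm38.p6, the assembly also called mm10), reaching from 250 bases before to 50 after the start, were matched for 63 of the 88 genes, 54 of them canonical. The stretch from 100 bases before to 20 from the start on is printed 5′ to 3′ along the gene for 8 genes. Capitals mark matches, on either strand, to the ETS letters CCGGAAG, the SP/KLF letters GGGCGG, the NFY letters CCAAT and the cyclic AMP response element TGACGTCA, and a pyrimidine run of at least 8 letters within 30 bases of the start. Rpl37 and Rps21 are shown because they had the highest promoter peaks of the matched canonical genes, and both have an ETS match and an SP/KLF match close to the start.
Rpl37, chr15:5116513-5116632, plus strand: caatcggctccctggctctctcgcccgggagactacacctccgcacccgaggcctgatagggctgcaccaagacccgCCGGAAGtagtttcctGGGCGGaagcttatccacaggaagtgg
Rps21, chr2:180257279-180257398, plus strand: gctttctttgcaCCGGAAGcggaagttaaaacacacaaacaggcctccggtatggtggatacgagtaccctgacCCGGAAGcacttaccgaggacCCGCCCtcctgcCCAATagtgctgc

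Rpl4, Rps4x and Rps9 are shown because their peaks were among the lowest of the canonical genes. Rpl4 and Rps9 have a pyrimidine run across or just before the start, and Rps4x has SP/KLF matches and no such run.
Rpl4, chr9:64173287-64173406, plus strand: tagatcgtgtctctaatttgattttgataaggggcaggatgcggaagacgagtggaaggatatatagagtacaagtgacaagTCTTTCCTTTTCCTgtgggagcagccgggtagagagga
Rps4x, chrX:102189372-102189491, minus strand: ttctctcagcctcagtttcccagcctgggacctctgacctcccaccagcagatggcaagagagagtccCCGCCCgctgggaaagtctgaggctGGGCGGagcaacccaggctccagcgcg
Rps9, chr7:3703941-3704060, plus strand: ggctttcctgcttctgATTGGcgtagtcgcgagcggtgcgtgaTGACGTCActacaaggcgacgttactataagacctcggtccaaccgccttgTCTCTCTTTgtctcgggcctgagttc

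Rps27l, Rps12 and Rps23 are shown because their peaks ranked higher at 39 °C in all the alternative analyses that were run.
Rps27l, chr9:66945986-66946105, plus strand: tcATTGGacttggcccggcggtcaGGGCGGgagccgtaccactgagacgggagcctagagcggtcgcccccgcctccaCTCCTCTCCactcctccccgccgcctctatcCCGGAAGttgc
Rps12, chr10:23787190-23787309, minus strand: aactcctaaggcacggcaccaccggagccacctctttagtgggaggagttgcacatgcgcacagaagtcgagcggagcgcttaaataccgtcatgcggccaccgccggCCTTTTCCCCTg
Rps23, chr13:90923022-90923141, plus strand: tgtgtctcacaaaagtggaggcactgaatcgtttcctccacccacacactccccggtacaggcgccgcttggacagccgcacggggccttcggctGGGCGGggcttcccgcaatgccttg

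Of the 60 matched genes whose promoter was open in all 8 libraries, 36.7% had an ETS match, against 18.2% of 10120 other coding promoters open in all 8 and 12.2% of all 16441 other coding promoters. A pyrimidine run was present in 50.0% of them, against 20.8% of the other open promoters and 21.9% of all other coding promoters. The first base at the RefSeq start was C in 33.3% of them and in 14.7% of the other open promoters. The mitochondrial ribosomal protein genes, which encode a separate ribosome, had an ETS match in 34.8% and a pyrimidine run in 24.6% of 69 promoters. The YY1 letters AAGATGGC were found in 8.33% of the ribosomal protein promoters, 4.64% of the other open ones and 3.25% of all others. The SP/KLF match was frequent everywhere, at 60%, 66.2% and 48.2% in the same order. The NFY match was found in 30.0%, 38.9% and 38.8%, the cyclic AMP response element in 8.33%, 3.23% and 2.4%, the E-box CACGTG in 8.33%, 10.1% and 8.07%, the NRF1 letters GCGCATGC in 3.33%, 5.48% and 3.77%, and the TATA letters TATAAA in 8.33%, 6.55% and 12.9%. Motifs were searched on both strands and may overlap each other. The median GC content was 57.5% in the open ribosomal protein promoters and 61.3% in the other open ones. These shares describe letters in a window and no binding was measured.

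**Figure D1:**
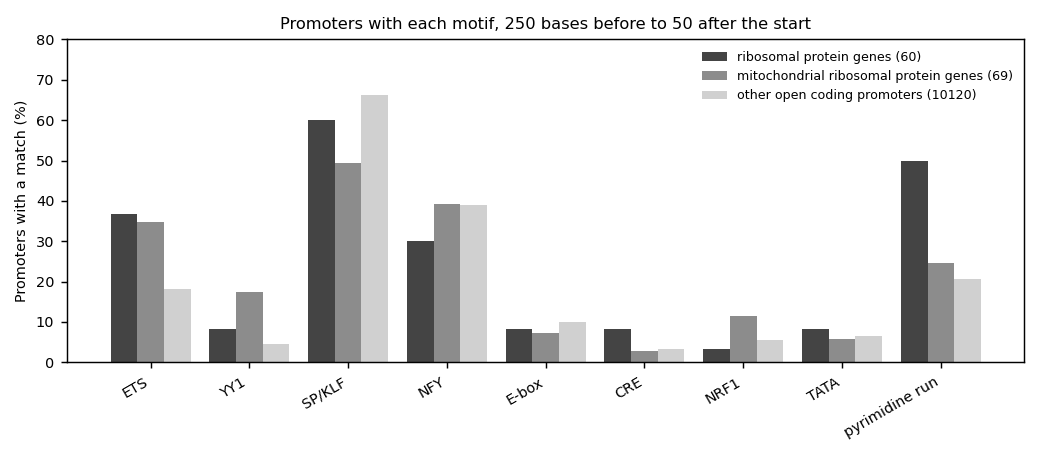
Percentage of promoters (y axis) with a match to each motif (x axis) for ribosomal protein genes open in all 8 libraries, mitochondrial ribosomal protein genes and other coding promoters open in all 8. The ETS bar stands at 36.7% for the ribosomal protein genes against 18.2% for other open promoters, and the pyrimidine run at 50.0% against 20.8%.

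A promoter was called open in a library when a peak overlapped 1 kb on either side of any annotated transcription start site of the gene. All 73 canonical genes were open in all 8 libraries. With the paralogs and Rps19bp1, 79 of the 88 genes were open in all 8, against 13066 of 21863 other coding genes (59.8%). Per library, 89.8% to 90.9% of the ribosomal protein genes and 60.3% to 67.7% of the others were open. The libraries held 49.8 to 169 M kept fragments (M for mega), of which the deepest were 37 °C replicates 1 and 4, and 54845 to 92013 peaks.

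Of the 8 paralogs, Rps27l, Rpl22l1, Rpl36al, Rpl7l1 and Rpl3l were open in all 8 libraries. Rpl10l and Rpl39l, which are known for expression in the testis, and Rps27rt had no promoter peak in any library. Of the pseudogene-like copies, Rpl10-ps3, Rpl9-ps1, Rpl36a-ps1, Rpl9-ps6 and Rps12-ps3 had none either. Rpl36-ps4 had a peak in 3 of 4 libraries at 37 °C, of 400, 437 and 297 bp in replicates 1, 2 and 4, and in 0 of 4 at 39 °C. It was missing in 37 °C replicate 3, the shallowest library of all.

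Of the 80 ribosomal protein genes open in at least 1 library, 0 were open in all 4 libraries of one temperature and in 0 of the other. Among all 15065 coding genes open in at least 1 library, 321 were open only at 37 °C by this rule (2.13%) and 3 only at 39 °C (0.0199%). Fisher's exact test per gene, two-sided, called 0 genes after adjustment over 15065, and 324 had an unadjusted p under 0.05, none of them a ribosomal protein gene. The smallest p that 4 against 4 allows is 0.0286 in this exact test, so no gene could pass.

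The cells were checked against marker promoters. The neural precursor genes Nes, Sox2, Pax6, Vim and Msi1 were open in all 8 libraries and Sox1 in 7, though Pax6, Msi1 and Sox1 peaks were low. Of the dopaminergic neuron genes, Th, Nr4a2 and Pitx3 were open in all 8 and Slc6a3 in 4 at 37 °C and 1 at 39 °C. By the height percentile defined below, Nr4a2 averaged 68.0, Pitx3 33.0, Th 13.3 and Slc6a3 0.00995, the last at the bottom of the scale. Of the markers of other cells, Ptprc (leukocytes) and Alb (hepatocytes) were open in none, while Cd68 and Col1a1 were open in all 8. Pecam1 was open in 7, with a low peak. The part of other cells in the results was not tested.

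Peak height was ranked within each library, because scores grow with depth. The height percentile is the rank of the −log10 q of a gene's highest promoter peak among the 13066 other coding promoters open in all 8 libraries, so 50 is the middle of open promoters. The ribosomal protein genes lay around that middle. The median over the 79 genes of the mean percentile was 51.8, with quartiles at 36.6 and 70.0 and a range from 10.8 to 98.8. In 41 of 79 genes the mean was above 50, in 5 (6.33%) above 90 and in 5 (6.33%) below 25. Promoters of mitochondrial ribosomal proteins, all 78 open in all 8 libraries, had a median of 37.4, translation genes outside the symbol rule 68.0 (22 of 22 open) and ribosome biogenesis genes 65.3 (16 of 16 open).

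The subunits differed in level. The median over the 43 large subunit genes was 57.9 and over the 30 small subunit genes 41.4, as a description with no test. Per library, the large subunit median lay between 53.6 and 61.3 and the small subunit median between 38.1 and 46.1. The large subunit stood higher in all 8 libraries, which hold the same genes and do not replicate the difference between subunits. Some heights belong to summits over 1 kb from the start, given below, mostly in large subunit genes. The median over all 79 genes was 52.5 ± 4.81 at 37 °C and 50.4 ± 1.68 at 39 °C (SD over 4 libraries each), a difference smaller than the spread at 37 °C. That difference changed sign in libraries under 100 M fragments and with peaks counted only when their summit lay within 1 kb of a start.

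Among the large subunit genes, Rpl37 had the highest peak. Its percentile was 98.2, 99.2, 99.3 and 99.2 at 37 °C and 98.2, 98.4, 99.5 and 98.9 at 39 °C, in replicates 1 to 4. Its summit lay at −183 to −180 bp in all 8 libraries (negative positions are upstream of the start along the gene). Rpl30 followed, with 92.8, 91.8, 89.2 and 94.1 at 37 °C and 91.8, 92.5, 92.7 and 91.1 at 39 °C. The temperatures overlapped in both genes. Rpl23a also averaged above 90, but its value was 37.5 in 39 °C replicate 1 and 97.8 to 98.8 in the other 7 libraries. In those 7 the summit lay 3340 to 3357 bp downstream of the start, within a peak that also covered starts of Nek8 and Tlcd1, and in 39 °C replicate 1 it lay 66 bp from the start.

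The lowest canonical gene was Rpl4, whose product lines the exit tunnel of the ribosome. Its percentile was 15.1, 13.4, 14.3 and 14.8 at 37 °C and 13.9, 13.4, 12.5 and 13.3 at 39 °C. The promoter is shared with Zwilch, a gene of the spindle checkpoint that starts next to it.

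Among the small subunit genes, Rps21 stood highest, at 92.3, 93.6, 92.8 and 93.2 at 37 °C and 89.3, 92.6, 92.9 and 92.0 at 39 °C. At the low end, Rps4x, the X-linked form of its protein, had 18.6, 20.6, 19.1 and 19.5 at 37 °C and 17.8, 19.1, 20.8 and 22.8 at 39 °C. Rps9 averaged 18.7 ± 1.03 at 37 °C and 22.3 ± 1.47 at 39 °C (SD over 4 libraries), and it did not pass the limma test (adjusted p = 0.0604). These canonical genes, all open in all 8 libraries, spanned nearly the whole range of open promoters.

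Height went with base composition in these promoters. Over the 60 matched open genes, the Pearson correlation of GC content with mean percentile was 0.53, against 0.27 over 10120 other open promoters, as a description across promoters that share the same 8 libraries. The 36 genes with an SP/KLF match, itself made of G and C, had a median percentile of 63.2 and the 24 without it 37.5. In other open promoters the medians were 57.0 and 39.1. Genes with and without a pyrimidine run had medians of 44.9 and 49.7.

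**Figure D2:**
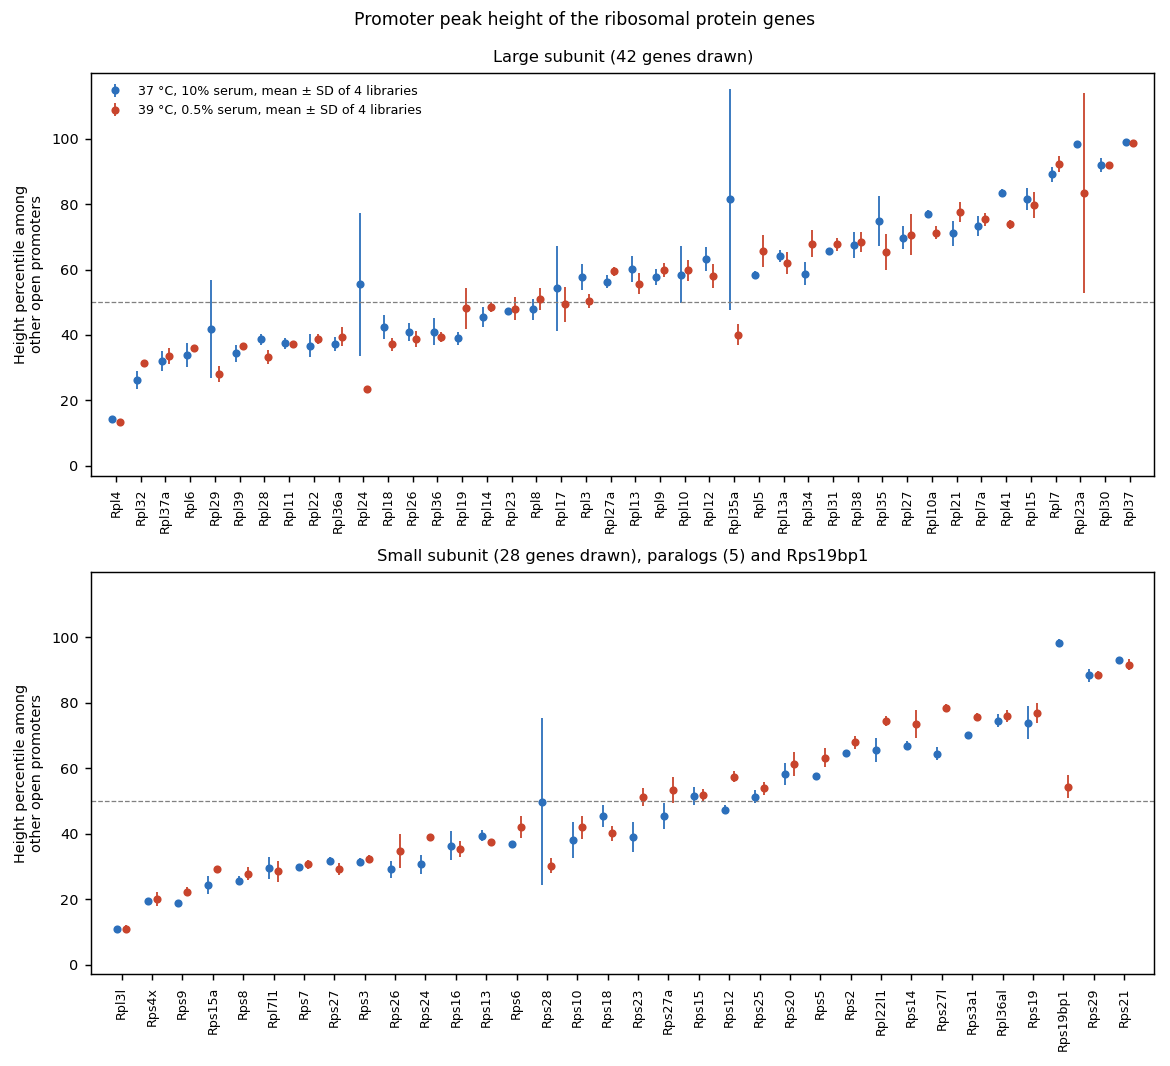
Height percentile among other open promoters (y axis, mean ± SD of 4 libraries a group) for 76 of the 79 genes open in all 8 libraries (x axis, sorted by mean), at 37 °C and 39 °C. Values run from 10.8 for Rpl3l to 98.8 for Rpl37, and SD bars that pass 100 belong to genes whose peak joined a neighbour's in only some libraries.

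Between the temperatures, 12 of the 79 genes changed in percentile by limma on its normal score, with Benjamini-Hochberg adjustment over 13145 genes. There were 7 that ranked higher at 39 °C (8.86%), against 8.63% of all genes tested, and 5 that ranked lower (6.33%), against 7.78%. These shares were near the background. With percentiles taken against all promoters open in each library, 5 ranked higher and 19 lower, and over all genes the calls moved from 1135 higher and 1023 lower to 510 higher (3.88%) and 3924 lower (29.9%). Differences below are 39 °C minus 37 °C on the normal score, in SD units of the reference promoters.

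The 7 genes that rose in rank were the paralogs Rps27l and Rpl22l1, the small subunit genes Rps12, Rps23, Rps24 and Rps3a1, and the large subunit gene Rpl34. In all 7 the temperatures did not overlap and the summit lay within 200 bp of a start in all 8 libraries.

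Rps27l (chr9:66946086-66949516), a paralog of Rps27 known as a target of p53, had percentiles of 65.4, 64.1, 61.8 and 66.4 at 37 °C and 80.1, 77.9, 78.0 and 78.2 at 39 °C. The difference was 0.42 (SE 0.04; limma, adjusted p = 0.000368). It was kept in all the alternatives run. Its sister gene Rps27 had 31.8 ± 1.13 at 37 °C and 29.2 ± 1.91 at 39 °C (SD over 4 libraries each) and did not pass the test.

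Rps12 (chr10:23785183-23787275) had 49.3, 46.8, 46.5 and 46.9 at 37 °C and 59.8, 56.4, 56.5 and 57.2 at 39 °C. The difference was 0.25 (SE 0.04; limma, adjusted p = 0.00323). Rps23 (chr13:90922958-90924950), which lies in the decoding centre, had 44.7, 37.8, 39.4 and 33.8 at 37 °C and 49.2, 51.5, 49.1 and 55.1 at 39 °C, a difference of 0.31 (SE 0.06; limma, adjusted p = 0.012). Both were kept in all the alternatives run. Rps23 was also the gene whose peak became relatively wider, as given below.

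Rps24, mutated in some patients with Diamond-Blackfan anaemia, rose from 30.6 ± 2.84 to 38.9 ± 0.71 (limma, adjusted p = 0.0124), but not with the 5′ end of the gene as its only start (adjusted p = 0.485) or a reference per library (adjusted p = 0.145). Rpl22l1, a paralog of Rpl22, rose from 65.6 ± 3.59 to 74.4 ± 1.39 (limma, adjusted p = 0.0136; 0.0645 in libraries under 100 M fragments), while Rpl22 did not pass the test. Rps3a1 rose from 70.1 ± 0.76 to 75.7 ± 1.12 (limma, adjusted p = 0.0151), a call lost without 37 °C replicate 4 and in libraries under 100 M fragments (adjusted p = 0.0538 and 0.0914). Rpl34 rose from 58.8 ± 3.47 to 67.9 ± 4.19 (limma, adjusted p = 0.0371), a call lost in 9 of 21 alternatives. The remaining paralogs did not pass the test: Rpl36al had 74.5 ± 1.95 and 76.0 ± 1.86, Rpl7l1 29.6 ± 3.38 and 28.5 ± 3.14, and Rpl3l, the form of skeletal muscle and heart, 10.7 ± 0.62 and 10.9 ± 1.04.

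Among the 5 genes that ranked lower at 39 °C were Rps19bp1, Rpl41, Rpl10a and Rpl24. For 3 of the 5, Rps19bp1 and Rpl24 among them, the summit of the 37 °C peak lay far from the start, and at 39 °C it lay at the start.

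Rps19bp1 (chr15:80260615-80264315) had 99.5, 98.1, 97.1 and 98.7 at 37 °C and 51.5, 54.3, 52.1 and 59.4 at 39 °C, a difference of −2.09 (SE 0.13; limma, adjusted p = 2.15e-05). At 37 °C its start lay in a peak of 11680, 11607, 11352 and 11586 bp, which reached the start of Atf4, a transcription factor gene of the stress response, and had its summit 8759 to 9041 bp from the Rps19bp1 start. At 39 °C its own peak of 1664 to 1821 bp had the summit 3 bp from the start in all 4 libraries. The call was lost with promoters of 5 kb (adjusted p = 0.958), where the neighbour's peak counts at both temperatures.

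In Rpl13a (chr7:45125558-45128761), on the minus strand, the promoter peak was joined over another coding start in all 4 libraries at 37 °C and in none at 39 °C. Its widths were 13460, 12164, 12592 and 11005 bp at 37 °C and 3585, 3291, 3292 and 3021 bp at 39 °C, without overlap, and the summit stood at −204 bp in all 8 libraries. The percentile was 64.1 ± 1.75 and 62.1 ± 3.36 (SD, n = 4 each) and did not pass the test (adjusted p = 0.52).

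In Rpl24 the shallowest 37 °C library stood with the 39 °C libraries. The gene had 64.0, 74.3, 23.9 and 59.9 at 37 °C and 22.6, 24.4, 24.3 and 22.8 at 39 °C, so the groups overlapped through 37 °C replicate 3. Its peak at 37 °C was 7240, 7069, 1742 and 5548 bp wide, reached Zbtb11 in at least 1 library, and had its summit 3785 to 4585 bp away in replicates 1, 2 and 4 and 4 bp away in replicate 3, the shallowest. The difference was −0.86 (SE 0.24; limma, adjusted p = 0.0392), and the call was kept without 37 °C replicate 3, lost without any other library, and lost with the summit required within 1 kb (−0.04, adjusted p = 0.445).

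In the other 2 the summit stayed in place. Rpl41 (chr10:128548114-128549305), the smallest ribosomal protein, had 84.1, 83.9, 81.5 and 83.9 at 37 °C and 74.9, 74.6, 71.8 and 74.2 at 39 °C, a difference of −0.33 (SE 0.04; limma, adjusted p = 0.00116) that was kept in all the alternatives in which it was tested. Its peak also covered Zc3h10 and had the summit 1340 to 1342 bp downstream of the start in all 8 libraries, so it was not counted with the summit required within 1 kb. Rpl10a (chr17:28328471-28331033) had 77.6, 76.9, 78.3 and 75.4 at 37 °C and 69.6, 73.9, 69.5 and 72.2 at 39 °C, with the summit 26 to 43 bp downstream (difference −0.18, SE 0.04; limma, adjusted p = 0.0252). This call was lost in 6 of 21 alternatives, namely without 37 °C replicate 1 or 2, without 39 °C replicate 1 or 3, with a replicate block (adjusted p = 0.063) and in libraries under 100 M fragments (adjusted p = 0.0694).

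With the summit required within 1 kb of a start, 66 genes were open in all 8 libraries. Then 6 ranked higher at 39 °C, namely Rps27l, Rps12, Rps23, Rps24, Rpl22l1 and Rps3a1 (9.09%), against 7.08% of all 12287 genes tested in that setting, and 3 lower, namely Rpl10a, Rpl28 and Rpl3 (4.55%), against 8.57%.

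**Figure D3:**
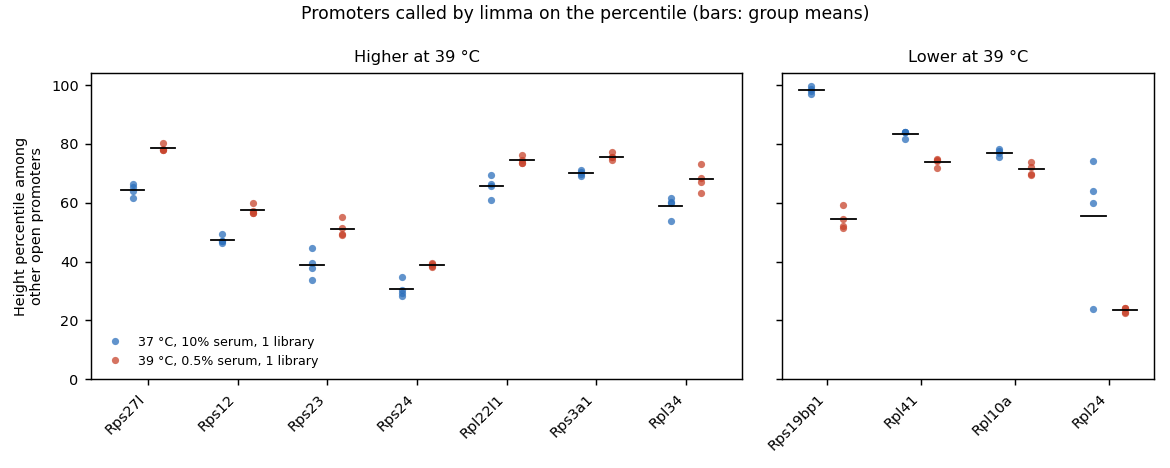
Height percentile (y axis) in each library for the 7 genes called higher and 4 of the 5 called lower at 39 °C by limma (x axis), with bars for group means. Rps27l moved from 61.8 to 66.4 at 37 °C to 77.9 to 80.1 at 39 °C, and in Rpl24 the 37 °C point at 23.9 is replicate 3.

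The promoter peaks of the ribosomal protein genes were wide. The median width over the 79 genes was 5840, 3116, 2597 and 4221 bp at 37 °C and 2792, 2652, 2441 and 2234 bp at 39 °C. Over the other open promoters it was 2716, 2313, 2095 and 2586 bp at 37 °C and 2205, 2131, 2000 and 1855 bp at 39 °C. The ribosomal protein genes were wider in all 8 libraries, by a factor of 1.59 ± 0.41 at 37 °C and 1.23 ± 0.03 at 39 °C (SD over 4 libraries each). The factor was 2.15 and 1.63 in the 2 libraries above 100 M fragments, and 1.24 and 1.35 in the 2 others at 37 °C, against 1.204 to 1.27 at 39 °C. The difference of the median relative log2 width between the temperatures was −0.33 over all 8 libraries, −0.18 without 37 °C replicate 1 and −0.067 in the 6 libraries under 100 M fragments. The last setting also leaves out 2 of the 4 libraries at 37 °C, and the part of depth was not tested. Peaks of at least 5 kb covered 36.4% ± 14.99 of these promoters at 37 °C and 9.81% ± 3.33 at 39 °C, against 11.9% ± 4.29 and 5.32% ± 1.64 of the others. The genes themselves are short, with a median length of 3289 bp against 24226 bp for other open genes, so a peak of 5 kb outran most of them.

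Small subunit and large subunit genes were both wide. The median relative width, the log2 of the width over the library's median for other open promoters, was 0.60 for the large and 0.40 for the small subunit genes, and −0.34 for the mitochondrial ribosomal protein genes. In the 22 translation genes outside the symbol rule it was 0.59, and in the 16 ribosome biogenesis genes 0.09. Wide peaks were thus not particular to the ribosomal protein genes. By mean relative log2 width over the 8 libraries the widest were Rpl3, Rpl12, Rps15 and Rpl10a. Rpl3 had 12183 to 12545 bp at 37 °C and 9437 to 9486 bp at 39 °C, and its summit stayed at −34 to −11 bp. Rpl12 had 7877 to 8314 bp at 37 °C and 7500 to 7714 bp at 39 °C in a peak that also covered Lrsam1. By the same measure the narrowest were Rpl3l, Rps9, Rps24 and Rpl5. Rpl3l, the paralog of muscle and heart, had 852 to 1486 bp at 37 °C and 994 to 1568 bp at 39 °C. In Rps9 the width was 4102, 1320, 1242 and 1458 bp at 37 °C and 1520, 1379, 1266 and 1236 bp at 39 °C. Rpl5, whose product binds 5S rRNA and Mdm2, had 1626 to 2218 bp at 37 °C and 1517 to 1835 bp at 39 °C.

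**Figure D4:**
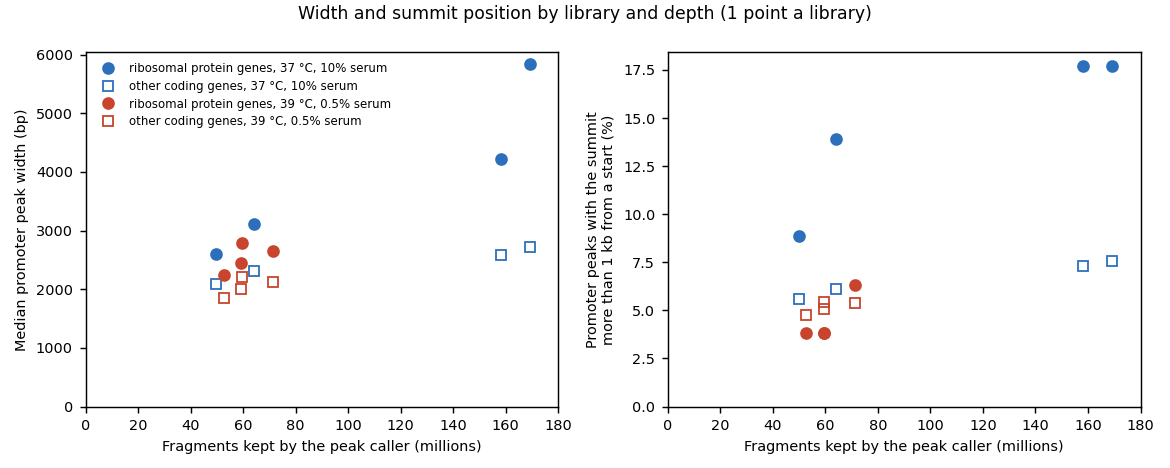
Median promoter peak width (left, bp) and percentage of promoter peaks with the summit more than 1 kb from a start (right), each against the fragments kept by the peak caller in M (x axis), with filled circles for ribosomal protein genes, open squares for other coding genes and 1 point a library. The widest medians, 5840 and 4221 bp, belong to the 2 libraries above 100 M fragments.

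By limma on relative width, 9 of 79 genes became narrower at 39 °C (11.4%), against 6.65% of all genes tested, and 1 became wider (1.27%), against 3.81%. The narrower genes included Rps19bp1, Rps18, Rpl13a, Rpl38, Rpl23a, Rpl10a and Rpl36. Of the 9, 2 shared a peak at 37 °C and count as a single event there. The number rose to 19 without 37 °C replicate 3, where the share over all genes was 9.7%, and fell to 5 without 37 °C replicate 1 or 4 or without 39 °C replicate 2 or 3, where the share over all genes fell too, to between 3.62% and 3.96%. With the summit required within 1 kb of a start 4 of 66 became narrower (6.06%), against 5.73% of all genes, so the share was then near the background. In libraries under 100 M fragments 5 became narrower, among them Rpl13a, Rps18 and Rps19bp1, against 2.88% of all genes, and 0 wider, against 0.358%.

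Rps18 had widths of 8463, 7060, 6382 and 8321 bp at 37 °C and 2952, 2919, 2651 and 2458 bp at 39 °C. Its summit lay 1080 to 1082 bp downstream of the start at 37 °C and within 2 bp of it at 39 °C. The difference in relative log2 width was −1.21 (SE 0.05; limma, adjusted p = 3.52e-06). In Rps19bp1 it was −2.50 (SE 0.09; limma, adjusted p = 2.18e-06) and in Rpl13a −1.66 (SE 0.10; adjusted p = 3.07e-05). Rpl13a and Rps18 kept this call in all the alternatives in which they were tested. Rps19bp1 lost it in 1 of 17 (limma, adjusted p = 0.105).

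Rpl38, whose loss alters translation of Hox transcripts in mouse embryos, had 9856, 9454, 3887 and 9829 bp at 37 °C and 3445, 2766, 2709 and 2403 bp at 39 °C (difference −1.22, SE 0.24; limma, adjusted p = 0.0186). This call was lost in 7 of 17 alternatives, among them the libraries under 100 M fragments (adjusted p = 0.157) and leaving out 37 °C replicate 1 or 4 or 39 °C replicate 2 or 3. At 37 °C the peak ran to Ttyh2 and had its summit 6915 to 7052 bp away in replicates 1, 2 and 4, while in replicate 3 it was 189 bp from the start. Rpl23a (−0.71; limma, adjusted p = 0.0478), Rpl36 (−0.53; adjusted p = 0.0496) and Rpl10a (−0.28; adjusted p = 0.0491) passed narrowly, and each lost the call when any of several libraries was left out. Rps23 was the gene that became relatively wider, with 2118, 1955, 1481 and 2043 bp at 37 °C and 2040, 2062, 1958 and 1821 bp at 39 °C. In bp its groups overlapped, and the difference of 0.31 (SE 0.06; limma, adjusted p = 0.0259) arose against library medians that were lower at 39 °C; on log2 bp it was 0.06 (adjusted p = 0.695), and the call was lost in 8 of 18 alternatives.

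The summit of a promoter peak usually lay at the start. The median summit of the 79 genes lay at −3.25 ± 0.96 bp from the nearest start at 37 °C and −1.75 ± 2.22 bp at 39 °C, and 78.8% ± 5.10 and 88.9% ± 2.16 of summits were within 200 bp, where others had 77.0% ± 1.39 and 78.0% ± 0.61. The share within 200 bp was 75.9% and 74.7% in the 2 libraries above 100 M fragments and 86.1% in both 37 °C replicate 3 and 39 °C replicate 2, so the groups met, and the difference was not tested. A summit more than 1 kb away was found in 14, 11, 7 and 14 genes at 37 °C and in 3, 5, 3 and 3 at 39 °C. As a share this was 14.6% ± 4.20 and 4.43% ± 1.27, against 6.65% ± 0.96 and 5.16% ± 0.32 for others. The number at 37 °C was lowest in replicate 3, the shallowest library of all, which still held 74026 peaks against at most 68410 at 39 °C. The part of depth and of the number of peaks was not tested.

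By gene, 65 of 79 (82.3%) had the summit within 1 kb in all 8 libraries, against 90.9% of others. In 8 genes (10.1%) it was over 1 kb away in at least 1 library at 37 °C and in none at 39 °C, against 2.61% of others. Among them were Rpl24, Rpl29, Rpl35a, Rpl38, Rps18, Rps19bp1 and Rps28. In the opposite direction there were 0 genes, against 0.513% of others. Rpl41 and Rpl3l had it over 1 kb away in all 8 libraries.

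A promoter peak that also covered the start of another coding gene was found in 34.8% ± 3.94 of the genes at 37 °C and 24.7% ± 0.73 at 39 °C, against 23.5% ± 0.81 and 22.0% ± 0.32 for others. Rpl35a is an example of a peak that covered another coding start in all 8 libraries. In 37 °C replicates 1, 2 and 4 Rpl35a shared its peak with 2, Iqcg and Lmln, and in the others with 1. Its percentile was 97.6, 99.03, 30.9 and 98.5 at 37 °C and 40.0, 41.0, 35.8 and 43.5 at 39 °C. In replicates 1, 2 and 4 at 37 °C the peak was 8671 to 8876 bp wide with its summit 5506 to 5511 bp away, and in replicate 3 it was 2455 bp wide with its summit 11 bp from the start. The gene did not pass the test (limma, adjusted p = 0.0554).

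In Rpl29 and Rps28 a distant summit was seen only in the 2 libraries above 100 M fragments. Rpl29 had its summit 7324 and 7282 bp away in 37 °C replicates 1 and 4 and at −36 bp in the other 6 libraries. Rps28 had it 6638 and 6715 bp away in the same replicates and at −16 to −14 bp in the others, and its peak covered the start of Ndufa7 at both temperatures. Over the 8 libraries the percentile ran from 26.7 to 74.9 in Rps28 and from 24.4 to 58.4 in Rpl29, highest in those 2 libraries. Where the summit lay near the start it ran from 26.7 to 32.1 and from 24.4 to 30.3. Neither gene passed the test.

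The lists give the summit of the whole peak only, so the height at a covered start inside a joined peak was not available for either temperature.

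**Figure D5:**
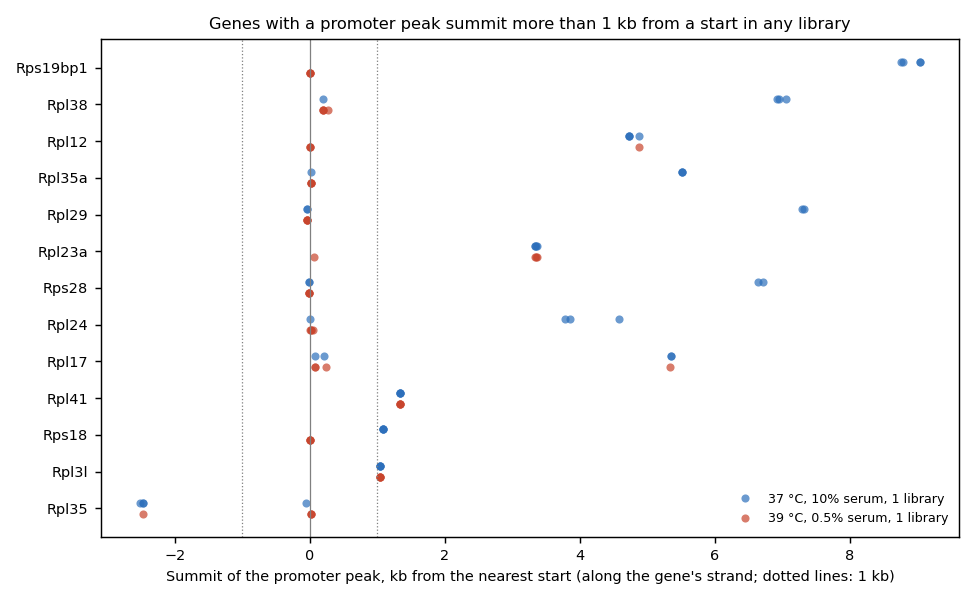
Position of the promoter peak's summit relative to the nearest start in kb (x axis, positive downstream along the gene's strand) in each library for 13 of the 14 genes (y axis) with a summit more than 1 kb away in any library. At 39 °C most points stand at the start, while at 37 °C Rps19bp1 reaches 8759 to 9041 bp.

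Other genes of translation were set beside them. Of the 22 translation genes outside the symbol rule, 2 ranked higher and 2 lower at 39 °C by limma, and 0 became wider and 3 narrower. Over all genes tested the shares were the 8.63% higher, 7.78% lower, 3.81% wider and 6.65% narrower given above, and nothing is read from counts this small. The initiation factor genes Eif3f and Eif3e rose from 24.98 ± 1.79 to 30.1 ± 1.34 (adjusted p = 0.0371) and from 47.0 ± 0.99 to 54.7 ± 4.13 (adjusted p = 0.0385). Eef2 (elongation) was among the 2 that ranked lower and fell from 98.1 ± 0.52 to 96.9 ± 0.47 (adjusted p = 0.0388). Of 16 ribosome biogenesis genes 0 ranked higher and 2 lower, Dkc1 (51.2 ± 1.95 to 42.5 ± 2.4) and Ncl (98.8 ± 0.17 to 97.2 ± 1.32), and of 78 mitochondrial ribosomal protein genes 3 ranked higher and 6 lower, with Mrpl14 and Mrps31 the most significant upward and Mrpl41 and Mrpl4 downward.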

How the data were processed

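Peak lists of 8 ATAC-seq libraries were used, 4 at each temperature. Per the submitters' notes and methods, reads were aligned to mm10 with Bowtie2 2.4.1, processed with SAMtools 1.15.1 and Picard 2.26.11, and peaks were called per library with MACS3 3.0.0a7 at a q-value of 0.05. The deposited files give each peak's position, its scores as −log10 p-value and −log10 q-value, its fold enrichment (a ratio) and its pileup signal. Those values were made by the authors without a control library or local background, so within a list −log10 q, fold enrichment and pileup gave the same ranks. The deposited peak width, position and name are of other kinds. The lists hold no read counts, so the study's count test was not run, and heights and widths grow with depth.

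Promoters were 1 kb on either side of GENCODE M21 starts (mm10; 0 peaks lay past a chromosome's end). Each gene took its highest promoter peak by −log10 q. The percentile was its rank among the other coding promoters open in all 8 libraries, and the relative width was log2 width minus the library median. Genes open in all 8 libraries were compared with limma 3.58.1 in R 4.3.3 (adjusted p under 0.05 over all 13145 genes), presence with Fisher's exact test (SciPy 1.17.1). The fit was tested on simulated data. Libraries were grouped by the labels.

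The members, gene lists, motifs and tests were chosen with earlier results of these data known. Named genes were those not open in all 8 libraries, the 4 highest, lowest, widest and narrowest, up to 6 called in each direction, and the paralogs. Genes named for joined peaks (Rpl35a, Rpl29, Rps28), further called genes (Rpl34, Rpl36, Rpl28) and parent genes of paralogs were chosen after their values were seen. A few genes that the rule picks are counted but not reported here by name, and the plots leave them out. Promoter sequences are from RefSeq (GRCm38.p6).

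Alternatives were a −log10 q of at least 5, equal numbers of peaks, promoters of 100 bp or 5 kb, the gene's 5′ end only, the summit within 1 kb, fold enrichment or pileup in place of −log10 q, a reference per library, untransformed percentiles, log2 bp, genes in at least 6 libraries, a replicate block, each library left out, and libraries under 100 M fragments.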

Additional observations from a re-analysis of the deposited data

Results flagged for a closer look

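Values that stood far from the other 3 of their group were looked for in 140 groups of 4 libraries, and 18 were found. For independent, normally distributed values about 1 in 20 groups would pass the cut-off, here 7. The groups include whole counts as well as percentile and width of the same peak, so 18 and 7 cannot be compared directly. No explanation was tested. By library, 37 °C replicate 3 had 79 genes with a promoter peak against 80 in the others, and 39 °C replicate 2 had 5 genes with a summit over 1 kb away against 3 in the others.

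In percentile, Rpl12 stood at 63.7 in 39 °C replicate 1 against 55.5 to 56.6 in the others, Rpl23a at 37.5 in 39 °C replicate 1 against 98.5 to 98.8, Rpl37 at 98.2 in 37 °C replicate 1 against 99.2 to 99.3, Rpl41 at 81.5 in 37 °C replicate 3 against 83.9 to 84.1, Rps12 at 49.3 in 37 °C replicate 1 against 46.5 to 46.9, and Rps27l at 80.1 in 39 °C replicate 1 against 77.9 to 78.2.

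In width, Rpl37 had 7371 bp in 37 °C replicate 1 against 2786 to 3501 bp, and 3366 bp in 39 °C replicate 2 against 2795 to 2877 bp. Rpl38 had 3887 bp in 37 °C replicate 3 against 9454 to 9856 bp, and Rps4x had 1398 bp in the same library against 3116 to 3269 bp. Rps9 had 4102 bp in 37 °C replicate 1 against 1242 to 1458 bp, and Rps21 had 6031 bp in 39 °C replicate 3 against 2234 to 2669 bp. Smaller gaps were found at 39 °C in Rpl21 (1976 bp in replicate 1 against 1630 to 1657 bp), Rpl23a (3234 bp in replicate 1 against 4774 to 5073 bp), Rpl4 (1519 bp in replicate 4 against 2002 to 2091 bp) and Rpl41 (4641 bp in replicate 2 against 3900 to 3934 bp).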

How the results depend on the processing

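The 79 genes open in all 8 libraries stayed between 66 and 82 under every alternative run. The difference of the median percentile (−2.07) became 1.01 with promoters of 5 kb, 0.756 with the gene's 5′ end only, 2.73 with the summit within 1 kb and 1.58 in libraries under 100 M fragments, and without 1 library at a time it ran from −3.86 (37 °C replicate 3) to −0.10 (37 °C replicate 4). The median summit (−2.5 bp) became −6.06 bp, 47.9 bp and −7.19 bp under the first 3 of these. The difference of the median relative width (−0.33) was −0.067 in libraries under 100 M fragments and −0.18 without 37 °C replicate 1. With the summit within 1 kb, 3 genes (Rps18 and Rps19bp1 among them) were open only at 39 °C, which follows from leaving out joined peaks. Without 37 °C replicate 3, 1 gene (Rpl36-ps4) was open only at 37 °C. The share over all coding genes is not given for these settings, so nothing is read from these counts. Calls higher in percentile (7) were 11 with untransformed percentiles (8.31% of all genes). Calls lower in percentile (5) were 3 with the summit within 1 kb (8.57% of all genes) and in libraries under 100 M fragments (4.47%) and 19 with a reference per library (29.9%). The call of a wider peak (1) became 0 with log2 bp and in libraries under 100 M fragments, and calls of a narrower peak (9) became 4 with the summit within 1 kb (5.73%) and 5 in libraries under 100 M fragments (2.88%). Without 1 library at a time, calls ranged from 5 to 9 (higher percentile), 3 to 8 (lower percentile), 0 to 2 (wider) and 5 to 19 (narrower), and over all genes from 536 to 1189, 548 to 1014, 87 to 1487 and 476 to 1276. Lower percentile calls were 3 without 37 °C replicate 1 or 2 or 39 °C replicate 1 and 8 without 37 °C replicate 3. The percentile deviations of same-numbered libraries correlated at 0.20, −0.11, 0.29 and −0.14, and those of differently numbered ones at −0.34 to 0.23. With so few pairs, these values cannot decide whether the numbers pair libraries. A replicate block gave 7 higher and 6 lower percentile calls, 0 wider and 6 narrower, and over all genes 876 higher, 858 lower, 42 wider and 429 narrower against 1135, 1023, 501 and 874. For single genes, 340 of 424 single-gene alternatives kept direction and side of the threshold and 83 lost the call. The alternatives counted include fold enrichment and pileup, which give the same ranks and so could not change a percentile call. Rpl24 changed sign to 0.12 with promoters of 5 kb. Beyond settings that change which peak is counted, the cause of these changes was not tested. Lists without counts limit what depth can be corrected for.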

Other observations

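Ribosomal protein genes have left many processed copies in the mouse genome. Of 290 annotated pseudogenes with Rpl or Rps symbols, 279 had no coding start within 2 kb. Of these 279, a peak within 1 kb of the copy's start was found in 29, 24, 21 and 29 in the 37 °C libraries and in 17, 16, 18 and 13 in the 39 °C libraries, in replicates 1 to 4. The mean share was 9.23% (SD 1.41) at 37 °C against 5.73% (SD 0.77) at 39 °C over 4 libraries each. Over other coding promoters the share with a peak was also higher at 37 °C in all libraries, at 65.0% to 67.7% against 60.3% to 62.9%. So was the total number of peaks, at 74026 to 92013 against 54845 to 68410. The direction was thus shared, and whether the size of the fall is particular to the copies was not tested. Peaks were present in all 8 libraries at 11 of them and in none at 246, while all 73 canonical parents were open throughout. Reads from copies and parents are near-identical over the transcribed part, so peaks over copies are uncertain where alignment could split them.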
